A study of Mus musculus with 17 samples.

Results

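The subject here is 10 genes followed in the hippocampus of young and aged mice. They serve everyday tasks of astrocytes or mark these cells, and are called homeostatic here. The genes were taken as a list of symbols, namely Aqp4, Kcnj10, Slc1a2, Slc1a3, Glul, Gja1, Gjb6, Aldh1l1, S100b and Sox9, and all 10 were found among the 38355 gene identifiers of the count tables. All mice were wild-type C57BL/6J and received no treatment, and polyadenylated RNA came from the hand-dissected hippocampus. Single-end libraries were made from mice of 3 months (3M, 5 libraries) and 24 months (24M, 6 libraries), and paired-end libraries, in a separate experiment, from mice of 3 months (3 libraries) and 29 months (29M, 3 libraries), 17 libraries in all. Each aged group was set against 3M libraries of the same type, and levels were normalized separately in these 2 experiments. The labels do not tie libraries to separate animals, so the p-values below measure the spread between these samples.

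Astrocytes keep the space around neurons fit for signalling. They take up glutamate after synaptic release and turn it into glutamine, they clear the potassium that active neurons shed, and they move water through end-feet that wrap the blood vessels. They are joined to each other by gap junctions, so that ions and metabolites spread through a network of cells. Astrocytes that react to injury or inflammation raise intermediate filament genes such as Gfap and Vim, and in the hippocampus radial glia-like stem cells of the dentate gyrus share several astrocyte genes.

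Of the 10 genes, S100b was the only one that differed from 3M at both ages by edgeR's quasi-likelihood F test, with p adjusted over all genes tested (Benjamini and Hochberg). It rose 1.41-fold at 24M and 1.31-fold at 29M. Aqp4, the water channel of the end-feet, rose 1.32-fold at 24M, a call that was lost when any of 5 single libraries was left out. The remaining 8 genes did not pass the test at either age, and the point estimates of the glutamate transporters Slc1a2 and Slc1a3 lay within 0.03 of 0 on the log2 scale. In the same libraries Gfap rose 1.58-fold at 24M and 1.74-fold at 29M.

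Of the 17 libraries, those of the 3M single-end group held 19144461 to 28438296 counts on genes and those of 24M 9213474 to 19756411. The 3M paired-end libraries held 10977976 to 15054972 and the 29M libraries 10991389 to 13563541. All 10 genes passed the filter on low counts in both comparisons, and the lowest count of any of them in any library was 348. 24M replicates 1 and 4 differed by less than the sampling noise, with a mean ratio of their squared difference to its counting variance of 0.406 against at least 1.23 in the other pairs of libraries, so their mean was used as 1 sample and n is 5 at 24M. 3M single-end replicate 4 stood apart in striatum markers, whose summed level spanned 229.9 to 719 normalized CPM (read counts scaled to library size) in its group and 249 to 279 at 24M.

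The promoters of 4 of the genes are printed below because they hold the gene that rose at both ages (S100b), the most abundant of the 10 transcripts per length (Glul), the gene with the largest decrease in point estimate (Aldh1l1), and a transporter whose level hardly moved (Slc1a3). Each runs 5′ to 3′ on the gene's strand from 250 bases before to 50 after the RefSeq start (GRCm38.p6). The windows are chr10:76253586-76253885 (plus strand) for S100b, chr1:153899679-153899978 (plus) for Glul, chr6:90550543-90550842 (plus) for Aldh1l1 and chr15:8710758-8711057 (minus) for Slc1a3. Capitals mark matches on either strand to 4 motifs, TTCNNNGAA (STAT), GAAA with 2 further bases and a second GAAA (IRF), TGANTCA (AP-1) and CCAAT (the CCAAT box).
S100b: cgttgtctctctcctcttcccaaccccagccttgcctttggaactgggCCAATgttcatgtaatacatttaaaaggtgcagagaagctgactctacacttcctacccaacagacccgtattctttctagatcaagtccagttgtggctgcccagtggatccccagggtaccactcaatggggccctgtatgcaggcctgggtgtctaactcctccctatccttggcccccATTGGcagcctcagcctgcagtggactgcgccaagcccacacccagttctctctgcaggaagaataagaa
Glul: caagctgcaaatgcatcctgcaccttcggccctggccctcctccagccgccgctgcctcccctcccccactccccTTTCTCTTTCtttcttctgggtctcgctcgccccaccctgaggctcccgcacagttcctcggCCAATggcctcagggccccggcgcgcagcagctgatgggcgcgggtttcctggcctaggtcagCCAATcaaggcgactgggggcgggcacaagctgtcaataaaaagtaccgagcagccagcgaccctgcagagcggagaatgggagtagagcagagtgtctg
Aldh1l1: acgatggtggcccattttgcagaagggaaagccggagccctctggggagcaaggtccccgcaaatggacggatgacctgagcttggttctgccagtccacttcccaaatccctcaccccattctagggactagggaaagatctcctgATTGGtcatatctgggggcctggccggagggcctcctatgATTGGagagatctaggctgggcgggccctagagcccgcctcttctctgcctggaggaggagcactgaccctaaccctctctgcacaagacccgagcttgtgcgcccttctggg
Slc1a3: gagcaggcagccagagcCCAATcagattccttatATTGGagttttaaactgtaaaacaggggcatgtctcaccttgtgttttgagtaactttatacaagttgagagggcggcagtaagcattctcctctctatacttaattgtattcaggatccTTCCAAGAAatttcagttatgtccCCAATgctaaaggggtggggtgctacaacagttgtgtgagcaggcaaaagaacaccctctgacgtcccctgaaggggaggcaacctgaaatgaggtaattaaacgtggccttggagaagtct

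RefSeq promoters of 8 of the 10 genes were used, without Aqp4 and Sox9. Chromosome 18, where Aqp4 lies, was left out when these 8 were selected. STAT, IRF and AP-1 were searched because the study tested these factor families on promoters of age-regulated genes, and the final choice of 4 motifs was made after further motifs had been counted in these promoters. S100b holds a CCAAT box on each strand and no STAT, IRF or AP-1 match. Glul holds an IRF match and a pair of CCAAT boxes, Aldh1l1 a pair of CCAAT boxes on the reverse strand, and Slc1a3 a STAT match and 3 CCAAT boxes. Among all 8 promoters, the CCAAT box occurred in 5 and each of the other motifs in 1, with AP-1 in Gja1. The shares among all 32851 RefSeq promoters of this length were 37.4% for the CCAAT box, 8.3% for STAT, 3.44% for IRF and 7.81% for AP-1. The RefSeq starts used for Aldh1l1 and for Slc1a2, which held no match, lie inside the genes as GENCODE M21 annotates them, downstream of their outermost starts. A match says only that these letters are in the window.

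S100b encodes a small calcium-binding protein that astrocytes hold in the cytoplasm and release, and mature oligodendrocytes also express it. The gene (ENSMUSG00000033208) lies on chromosome 10, bases 76253853 to 76261159 of GRCm38, plus strand. Its level was 97.5, 95.4, 94.5, 102.3 and 100.8 CPM in 3M single-end replicates 1 to 5. At 24M it was 132.1 CPM in the mean of replicates 1 and 4, 140.0 in replicate 2, 137.0 in replicate 3, 129.8 in replicate 5 and 151.7 in replicate 6. Every 24M sample was thus above every 3M sample, with no overlap between the groups. The log2 fold change was 0.49 (SE 0.05, 95% interval 0.38 to 0.60, n = 5 and 5), with an edgeR adjusted p of 0.000172, the 14th smallest p of 15683 genes. In the paired-end experiment S100b was at 93.2, 99.1 and 89.8 CPM at 3M and at 122.3, 128.3 and 120.5 CPM at 29M. These groups did not overlap either, and the log2 fold change was 0.39 (SE 0.05, 95% interval 0.30 to 0.49, n = 3 and 3; edgeR adjusted p = 0.00041).

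The increase of S100b passed the adjusted p threshold of 0.05 in all 20 alternative analyses at 24M (log2 fold change 0.46 to 0.51) and in all 12 at 29M (0.36 to 0.43). It did not pass the study's additional fold threshold of 0.5 on the log2 scale at either age. At 24M it lay just under that line, and passed it at 0.51 with 3M replicate 4, 24M replicate 5 or both libraries of the 24M pair left out. The difference between the 29M and the 24M effect was -0.10 on the log2 scale (95% interval -0.26 to 0.06, edgeR adjusted p = 0.646). Of 10 oligodendrocyte markers, 0 passed edgeR's test at 24M, where 1 had an unadjusted p under 0.05 and 1 passed with DESeq2. At 29M 1 of 10 rose by edgeR's test, and 5 were higher and 0 lower at an unadjusted edgeR p under 0.05. The gene that rose at 29M was Ermn, which encodes a cytoskeletal protein of myelinating cells, at 0.41 on the log2 scale (edgeR adjusted p = 0.017). Its call held in 8 of 12 alternative analyses. At 24M Ermn stood at 0.64 (edgeR adjusted p = 0.0525) and passed in 7 of 20 alternative analyses. The median log2 fold change of these markers was 0.16 at 24M and 0.15 at 29M. Their summed level ranged from 4408 to 7679 CPM at 3M and 6433 to 7509 at 24M, and from 4929 to 6889 CPM at 3M and 6182 to 6886 at 29M in the paired-end libraries. None of these markers was at 0, and their part in the S100b difference was not tested.

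**Figure D1:**
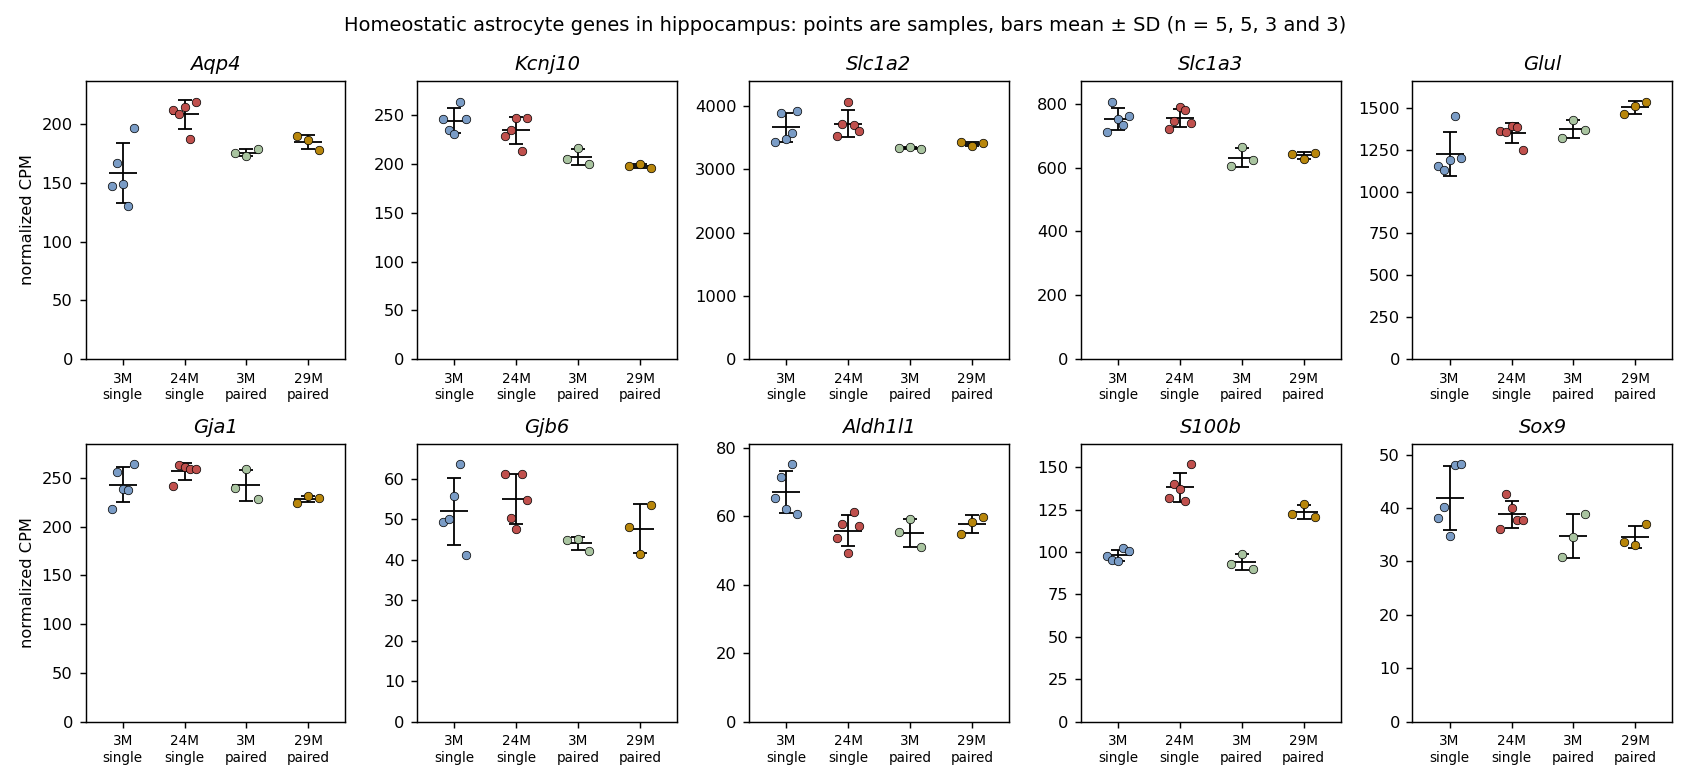
Normalized CPM (vertical axes, from 0) of the 10 homeostatic genes in each sample of the 4 groups (horizontal axis), with single-end and paired-end libraries normalized separately. Points are samples, with 24M replicates 1 and 4 as 1 point, and bars are mean ± SD for n = 5, 5, 3 and 3. S100b is the only gene whose aged samples lie above all 3M samples in both experiments.

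Aqp4 encodes the main water channel of the brain, which is concentrated in the end-feet around vessels, and Kcnj10 the inward rectifier (Kir4.1) through which astrocytes take up potassium. Aqp4 (ENSMUSG00000024411) was at 147.3, 167.3, 148.7, 130.4 and 197.1 CPM in 3M single-end replicates 1 to 5. At 24M it was at 212.4 CPM in the mean of replicates 1 and 4, 208.6 in replicate 2, 214.4 in replicate 3, 187.0 in replicate 5 and 219.2 in replicate 6. The groups overlapped only through 3M replicate 5, which was above 24M replicate 5. Aqp4 rose by 0.40 on the log2 scale at 24M (SE 0.09, 95% interval 0.20 to 0.59, n = 5 and 5; edgeR adjusted p = 0.0279).

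The Aqp4 call at 24M held in 12 of 20 alternative analyses, while the fold change stayed between 0.34 and 0.48. Without 3M replicate 1 the adjusted p was 0.0703, without 3M replicate 3 it was 0.051, and without 24M replicates 2, 3 or 6 it was 0.0756, 0.0622 or 0.0586. It was 0.0675 with both libraries of the 24M pair left out. In the paired-end libraries Aqp4 was at 175.6, 172.5 and 178.8 CPM at 3M and at 189.8, 186.6 and 178.3 CPM at 29M. The lowest 29M sample lay within the 3M range, and the log2 fold change was 0.07 (95% interval -0.0026 to 0.15, edgeR adjusted p = 0.306). The effect at 29M was 0.33 lower than that at 24M (95% interval of the difference -0.60 to -0.05), and the test of this difference gave an unadjusted p of 0.0212 and an adjusted p of 0.406. Of 10 endothelial and pericyte markers, 1 rose at 24M (Rgs5, a pericyte gene, log2 fold change 0.40) and 1 fell (Cldn5, a tight junction gene of endothelium, -0.60). At 29M 0 passed edgeR's test or DESeq2's, and 3 had an unadjusted p under 0.05, all lower. Their summed level was 361 to 447 CPM at 3M and 439.9 to 503.6 at 24M, and 382 to 417 at 3M and 328 to 396 at 29M, with none at 0. Their part in the Aqp4 difference was not tested.

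Kcnj10 (ENSMUSG00000044708, chromosome 1, 172341210 to 172374085, plus strand) ranged from 231.0 to 264.2 CPM at 3M and from 213.9 to 247.8 at 24M, with overlap. Its log2 fold change was -0.06 at 24M (95% interval -0.17 to 0.05, edgeR adjusted p = 0.494). In the paired-end experiment it was at 205.2, 216.9 and 200.4 CPM at 3M and at 197.9, 200.4 and 195.8 CPM at 29M, where the aged samples lay below all 3M samples by less than the rounding shown (log2 fold change -0.07, 95% interval -0.15 to 0.01, adjusted p = 0.373). The ratio of Aqp4 to Kcnj10, both per kilobase of annotated exon, was 0.563 ± 0.1 (SD, n = 5) at 3M and 0.77 ± 0.0204 (n = 5) at 24M. In the paired-end groups it was 0.735 ± 0.0423 (n = 3) at 3M and 0.81 ± 0.0208 (n = 3) at 29M. The ranges did not overlap in either experiment, and this ratio was not tested because it was formed after the levels were known.

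Slc1a2 (GLT-1) and Slc1a3 (GLAST) encode the astrocytic glutamate transporters, and Glul encodes glutamine synthetase, which joins glutamate and ammonia. Slc1a2 (ENSMUSG00000005089) lies on chromosome 2, bases 102658659 to 102790784, plus strand. Slc1a3 (ENSMUSG00000005360) lies on chromosome 15, bases 8634124 to 8710764, minus strand, and Glul (ENSMUSG00000026473) on chromosome 1, bases 153899944 to 153909723, plus strand. These 3 genes were the highest of the 10 in CPM in every group.

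Slc1a2 ranged from 3431 to 3920 CPM at 3M and from 3528 to 4069 CPM at 24M. The ranges overlapped, and the log2 fold change was 0.02 (95% interval -0.09 to 0.14, edgeR adjusted p = 0.818). In paired-end libraries it was at 3343, 3353 and 3323 CPM at 3M and at 3428, 3371 and 3417 CPM at 29M. The 29M samples were all above the 3M samples, but by 0.03 on the log2 scale (95% interval -0.06 to 0.12, adjusted p = 0.781). Slc1a3 ranged from 710.7 to 807.0 CPM at 3M and from 721.5 to 790.7 CPM at 24M, and its log2 fold change was 0.0063 (95% interval -0.09 to 0.10, adjusted p = 0.949). At 29M its log2 fold change was 0.02 (95% interval -0.08 to 0.11, adjusted p = 0.882), with 606.4 to 663.9 CPM at 3M and 627.2 to 646.1 CPM at 29M. For both transporters the intervals leave room for changes of -6.18% to 10.1% at 24M and of -5.09% to 8.4% at 29M. The ratio of Slc1a2 to Slc1a3 per kilobase was 3.16 ± 0.121 at 3M and 3.2 ± 0.098 at 24M (SD, n = 5 each), and 3.45 ± 0.152 at 3M and 3.47 ± 0.0281 at 29M (n = 3 each).

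Glul was at 1153, 1131, 1190, 1450 and 1200 CPM in 3M single-end replicates 1 to 5. At 24M it was at 1360 CPM in the mean of replicates 1 and 4, 1357 in replicate 2, 1393 in replicate 3, 1387 in replicate 5 and 1248 in replicate 6. 3M replicate 4 was above every 24M sample, while the other 3M samples were below all of them. The log2 fold change was 0.14 (SE 0.06, 95% interval 0.0004 to 0.28) with an edgeR adjusted p of 0.191. Without 3M replicate 4 it was 0.21 and the adjusted p 0.0345. In the paired-end libraries Glul was at 1319, 1427 and 1369 CPM at 3M and at 1461, 1512 and 1537 CPM at 29M, and these groups did not overlap. The log2 fold change there was 0.13 (SE 0.04, 95% interval 0.04 to 0.23), which did not pass with edgeR (adjusted p = 0.141) and passed with DESeq2 (adjusted p = 0.0249) and without the filter on low counts (adjusted p = 0.012).

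Gja1 and Gjb6 encode connexin 43 and connexin 30, the gap junction proteins that join astrocytes. Gja1 (ENSMUSG00000050953, chromosome 10, 56377330 to 56402513, plus strand) ranged from 218.2 to 263.8 CPM at 3M and from 241.6 to 262.7 CPM at 24M. In the paired-end groups it was at 240.0, 259.2 and 227.8 CPM at 3M and at 224.5, 231.1 and 229.5 CPM at 29M. The groups overlapped at both ages, with log2 fold changes of 0.08 (95% interval -0.03 to 0.19, edgeR adjusted p = 0.359) and -0.09 (95% interval -0.18 to 0.01, adjusted p = 0.344). Gjb6 (ENSMUSG00000040055, chromosome 14, 57123303 to 57133611, minus strand) ranged from 41.1 to 63.5 CPM at 3M and from 47.6 to 61.2 CPM at 24M. In the paired-end groups its ranges were 42.3 to 45.2 CPM at 3M and 41.4 to 53.5 CPM at 29M. Its coefficient of variation between 3M single-end samples was 15.99%, and its log2 fold changes of 0.08 and 0.12 had wide 95% intervals of -0.15 to 0.31 and -0.06 to 0.29 (adjusted p = 0.657 and 0.506). The ratio of Gja1 to Gjb6 per kilobase was 1.25 ± 0.268 at 3M and 1.23 ± 0.169 at 24M (SD, n = 5 each), and 1.43 ± 0.0536 at 3M and 1.26 ± 0.174 at 29M (n = 3 each), with overlapping ranges in both experiments.

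Aldh1l1 encodes a cytosolic folate enzyme (10-formyltetrahydrofolate dehydrogenase) that is widely used to mark all astrocytes. The gene (ENSMUSG00000030088) lies on chromosome 6, bases 90486427 to 90600203, plus strand. It was at 65.4, 71.5, 62.2, 75.2 and 60.8 CPM in 3M single-end replicates 1 to 5. At 24M it was at 53.8 CPM in the mean of replicates 1 and 4, 57.7 in replicate 2, 49.3 in replicate 3, 61.3 in replicate 5 and 57.1 in replicate 6. The groups overlapped only through 3M replicate 5 and 24M replicate 5. The log2 fold change was -0.26 (SE 0.07, 95% interval -0.42 to -0.11), and its edgeR adjusted p of 0.0516 just missed the threshold. In 8 of 20 alternative analyses it passed, among them DESeq2 (adjusted p = 0.0172), no filter (0.0342), the 24M pair kept apart (0.0241), and the fits without 3M replicate 5 (0.0152), 24M replicate 4 (0.0458) or 24M replicate 5 (0.039).

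At 29M Aldh1l1 was at 54.9, 58.4 and 59.9 CPM against 55.4, 59.1 and 51.0 CPM in the 3M paired-end libraries. These ranges overlapped, with a log2 fold change of 0.06 (95% interval -0.07 to 0.20, edgeR adjusted p = 0.664). The effect of 29M exceeded that of 24M by 0.33 (95% interval 0.09 to 0.56), with an unadjusted p of 0.00918 and an adjusted p of 0.392. Since age and library type change together between the experiments, a difference of age and one of library type cannot be told apart here. The ratio of S100b to Aldh1l1 per kilobase was 4.48 ± 0.399 at 3M and 7.57 ± 0.769 at 24M (SD, n = 5 each), and 5.2 ± 0.144 at 3M and 6.53 ± 0.354 at 29M (n = 3 each), without overlap in either experiment and, as above, without a test.

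Sox9 encodes a transcription factor present in the nuclei of nearly all astrocytes of the adult forebrain. The gene (ENSMUSG00000000567) lies on chromosome 11, bases 112782224 to 112787760, plus strand. It was at 38.1, 40.1, 34.8, 48.1 and 48.2 CPM in 3M single-end replicates 1 to 5 and between 36.0 and 42.6 CPM at 24M. The 24M samples lay inside the 3M range, and the log2 fold change was -0.10 (95% interval -0.30 to 0.09, edgeR adjusted p = 0.488). At 29M it was at 33.6, 33.1 and 36.9 CPM against 30.8, 34.6 and 38.9 CPM at 3M, and its log2 fold change was -0.006 (95% interval -0.19 to 0.17, adjusted p = 0.982). In bulk tissue, fewer astrocytes and less RNA per astrocyte cannot be told apart, for Sox9 as for the other genes.

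**Figure D2:**
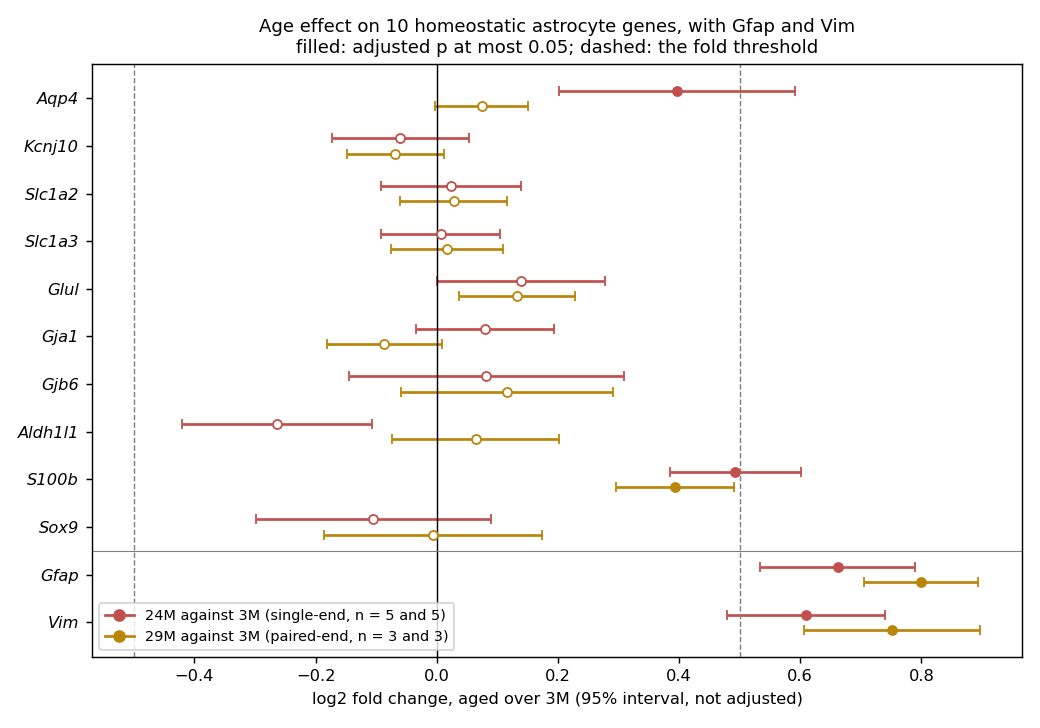
Log2 fold change of the aged group over the 3M group (horizontal axis) with its unadjusted 95% interval for the 10 homeostatic genes, Gfap and Vim, at 24M (red, n = 5 and 5) and 29M (ochre, n = 3 and 3). Filled points have an edgeR adjusted p of at most 0.05 and dashed lines mark the fold threshold of 0.5. S100b is filled at both ages and Aqp4 at 24M, all of them inside the dashed lines, while Gfap and Vim lie beyond 0.5 at both ages.

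Set against the whole transcriptome, 2 of the 10 genes were past the adjusted p threshold and higher at 24M, where 3.21% of the 15683 genes tested were, and 0 of 10 were lower, where 2.37% were. At 29M 1 of 10 was higher, against 2.32% of the 15097 genes tested, and 0 of 10 were lower, against 0.662%. Neither age had any of the 10 genes past both thresholds with edgeR or with DESeq2, while 1.98% of all genes were at 24M and 1.45% at 29M. At an unadjusted edgeR p under 0.05, 3 of 10 were higher and 1 was lower (Aldh1l1) at 24M, beside 2189 and 1905 of all 15683 genes. At 29M 2 of 10 were higher and 0 lower, beside 1489 and 1130 of all 15097 genes. DESeq2 called 2 of 10 higher and 1 lower (Aldh1l1) at 24M, beside 933 and 648 of 26441 genes. At 29M it called 2 of 10 higher and 0 lower, beside 225 and 80 of 24470 genes. All 24M samples lay above all 3M samples for 1 of 10 genes (S100b), compared with 3.15% of all genes, and below them for 0 of 10, compared with 3.42%. In the smaller paired-end experiment 3 of 10 genes were without overlap above (Slc1a2, Glul and S100b), compared with 11.9%, and 1 below (Kcnj10), compared with 10.5%. The median log2 fold change of the 10 genes was 0.05 at both ages, that of all genes -0.0032 at 24M and -0.0021 at 29M. Their summed level was 6157 to 6839 CPM at 3M and 6575 to 7249 at 24M, and 6113 to 6330 at 3M and 6390 to 6475 at 29M.

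The difference between the 2 age effects passed for none of the 10 genes, nor for any of the 16055 genes tested with edgeR (0%) or with DESeq2, and the smallest edgeR adjusted p was 0.392. At an unadjusted p under 0.05 edgeR gave 1674 of all genes and 3 of the 10, namely Aqp4, Aldh1l1 and Gja1. Gja1 had a difference of -0.17 on the log2 scale (unadjusted p = 0.0482, adjusted p = 0.470). The 3 differences had opposite signs, positive for Aldh1l1 and negative for Aqp4 and Gja1.

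Per kilobase of annotated exon, the order of the genes at 3M in single-end libraries ran from Glul (368.6 ± 38.8 CPM per kilobase, SD, n = 5) over Slc1a2 (279 ± 17.6), Slc1a3 (88.2 ± 4.18), S100b (66.1 ± 2.29) and Kcnj10 (45.3 ± 2.38) to Aqp4 (25.4 ± 4.07). Below them stood Gja1 (23.7 ± 1.74), Gjb6 (19.4 ± 3.1), Aldh1l1 (14.8 ± 1.36) and Sox9 (10.1 ± 1.46). The ranges of neighbours overlapped from Aqp4 to Aldh1l1, so the order of these 4 genes was not separated beyond the spread, and the other neighbours did not overlap. The order changed with age at a single place. S100b stood below Slc1a3 in both 3M groups and above it at 24M (93.1 ± 5.78 against 88.6 ± 3.42, with overlapping ranges) and at 29M (83.4 ± 2.76 against 74.8 ± 1.18, n = 3 each, without overlap).

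Genes with related tasks were described by lists. Of 14 further genes of glutamate and glutamine handling, 3 rose and 0 fell at 24M, and 0 rose and 1 fell at 29M, with medians of -0.0047 and 0.0093 on the log2 scale. Among those that rose at 24M were Slc38a2 (a glutamine transporter, 0.32, edgeR adjusted p = 0.0048) and Slc7a11 (the cystine-glutamate exchanger, 0.58, adjusted p = 0.0245). Slc1a4, a neutral amino acid transporter, fell at 29M by 0.25 (adjusted p = 0.0149). At 24M it stood at -0.21 (edgeR adjusted p = 0.0525) and passed in 5 of 20 alternative analyses. Of 17 potassium, water and end-foot genes, Kcnj16, which encodes a partner subunit of Kir4.1, rose at 24M by 0.30 (adjusted p = 0.0372). At that age 1 was higher and 3 were lower at an unadjusted edgeR p under 0.05, and DESeq2 called 1 higher and 1 lower. At 29M 0 passed with edgeR or DESeq2, and 2 were higher and 3 lower at an unadjusted edgeR p under 0.05. The medians of that list were -0.01 and 0.04. The calls of Slc7a11 and Kcnj16 held in 14 and 11 of 20 alternative analyses, and that of Slc1a4 in 8 of 12.

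Of the other connexins, pannexins and their scaffold, 0 of 11 passed with edgeR or DESeq2 at 24M, where 1 was lower at an unadjusted p under 0.05, and 1 of 10 rose at 29M. That gene was Gjb1 (connexin 32, a connexin of oligodendrocytes, log2 fold change 0.39, edgeR adjusted p = 0.0384), whose call held in 4 of 12 alternative analyses. Of 14 genes of folate metabolism tested, Aldh1l2, the mitochondrial counterpart of Aldh1l1, was the only one that passed with edgeR, and DESeq2 called 1 further gene lower at 24M. Aldh1l2 rose by 0.62 at 24M (adjusted p = 0.0136) and by 0.56 at 29M (adjusted p = 0.0384, held in 5 of 12 alternative analyses), from a level of 6.18 ± 0.544 CPM to 9.5 ± 1.48 CPM at 24M (SD, n = 5 each). Among S100 relatives of S100b and their receptor gene, 2 of 8 tested rose at 24M and 1 of 7 at 29M. S100a6 rose by 0.58 at 24M (adjusted p = 0.00522) and by 0.66 at 29M (adjusted p = 0.00312). S100a4, which immune cells and fibroblasts express, rose by 0.87 at 24M (adjusted p = 0.0398, held in 10 of 20 alternative analyses) and stood at 0.81 at 29M (adjusted p = 0.0881). Of 17 further transcription factors of astrocytes, 0 passed with edgeR at either age. At 24M 1 was higher and 2 were lower at an unadjusted p under 0.05, 1 was called lower by DESeq2, and at 29M the counts were 0 with both tools.

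Of 38 other astrocyte-enriched genes, 4 rose and 5 fell at 24M, and 4 rose and 1 fell at 29M, with medians of -0.05 and 0.02 on the log2 scale. Ncan, which encodes the perineuronal proteoglycan neurocan, fell by 0.32 at 24M (edgeR adjusted p = 0.0058) and by 0.27 at 29M (adjusted p = 0.00188). Mertk, a phagocytic receptor, rose by 0.26 and 0.31 (adjusted p = 0.0283 and 0.0109), and the urea transporter gene Slc14a1 by 0.43 and 0.38 (adjusted p = 0.0193 and 0.0156). Apoe, which carries lipid between cells, rose at 29M by 0.27 (adjusted p = 0.00927) and stood at 0.16 at 24M (adjusted p = 0.15). The calls of Mertk held in 13 of 20 alternative analyses at 24M and 10 of 12 at 29M, those of Slc14a1 in 17 of 20 and 7 of 12. Among 25 reactive astrocyte genes tested at 24M, 7 rose and 0 fell (median 0.39), and among 21 tested at 29M, 9 rose and 0 fell (median 0.44), where no gene was lower at an unadjusted p under 0.05 or with DESeq2. Gfap went from 484.5 ± 43.5 CPM to 766.5 ± 33.4 at 24M (SD, n = 5 each) and from 465.6 ± 20.7 to 810.1 ± 21.4 at 29M (n = 3 each), with adjusted p of 8.8e-05 and 7.42e-07. Vim rose by 0.61 and 0.75, Serpina3n by 0.64 and 0.84, and Osmr by 0.81 and 0.89.

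**Figure D3:**
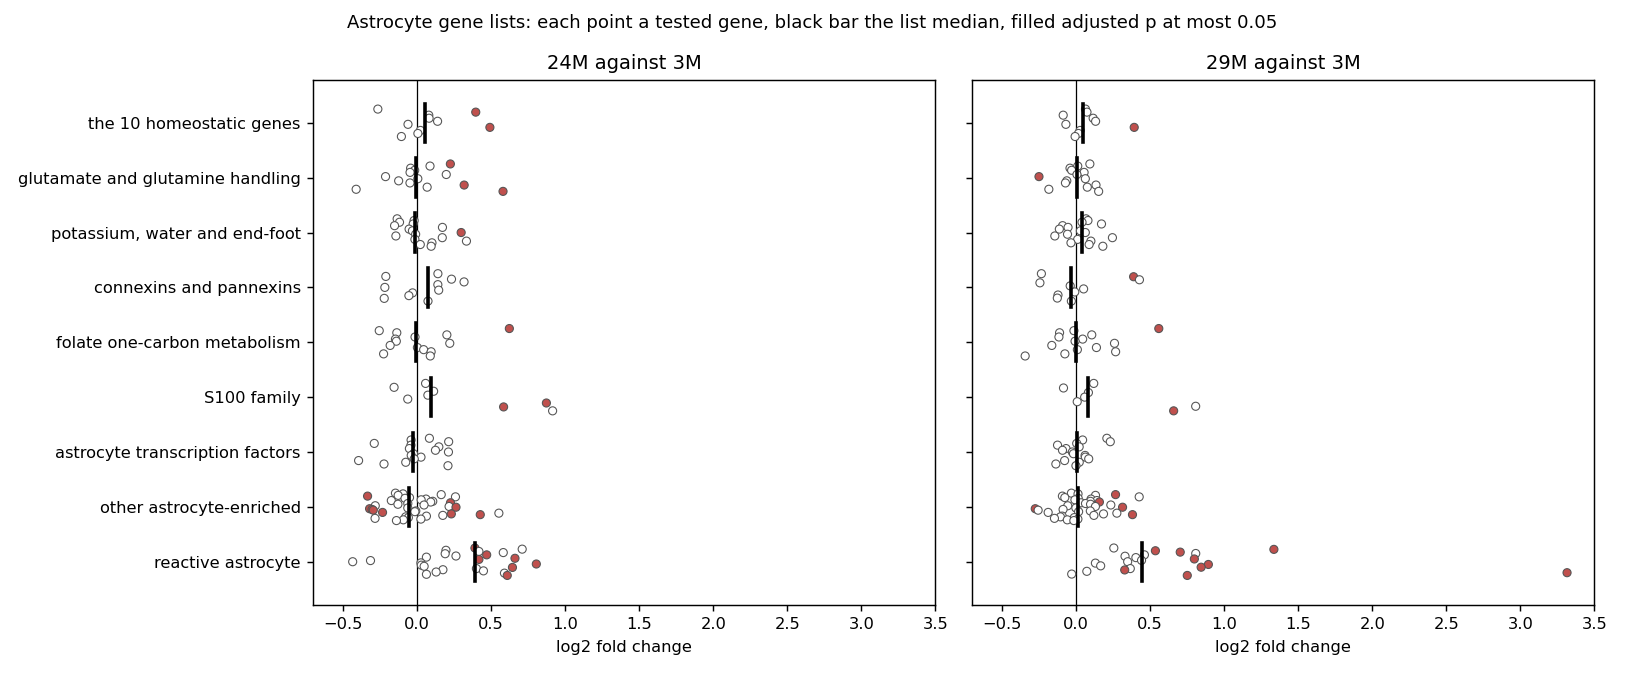
Log2 fold change (horizontal axis) of each tested gene of 9 astrocyte lists (rows), at 24M (left) and 29M (right). Points are genes, filled where the edgeR adjusted p is at most 0.05, and black bars are list medians. The bar of the 10 homeostatic genes lies at 0.05 in both panels and that of the reactive genes at 0.39 and 0.44.

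Markers of other cells were read in the same way. Of 10 neuron markers, 0 passed at either age with edgeR. At 24M 4 were higher and 2 lower at an unadjusted p under 0.05 and DESeq2 called 1 higher and 1 lower, and at 29M 2 were lower and DESeq2 called 1 lower. Of 8 microglia markers, 5 rose at 24M and 6 at 29M, among them C1qa (0.55 and 0.69), and their summed level went from 371 to 426 CPM at 3M up to 475 to 505 at 24M, and from 360 to 372 up to 467 to 490 at 29M. Of 6 oligodendrocyte precursor markers, 1 fell at each age, namely Gpr17 (-0.997 and -0.953). Of 7 neural progenitor markers tested, 3 fell at 24M and 2 at 29M, among them Dcx (-0.54 and -0.35, adjusted p = 0.0174 and 0.0368), which marks newborn neurons. The calls of Dcx held in 16 of 20 alternative analyses at 24M and 4 of 12 at 29M, where it did not pass with DESeq2. Of 11 ependymal and choroid plexus markers, 0 passed at either age with edgeR or DESeq2, and 0 at 24M and 1 at 29M had an unadjusted edgeR p under 0.05. Their summed level, mostly Ttr, varied between 2088 and 8614 CPM within the 3M single-end group. Of 8 meningeal markers, 1 rose at 24M (Lum, 0.85), a call that held in 12 of 20 alternative analyses. At 29M 0 passed with either tool or without adjustment. Of 10 striatum markers, 0 passed at 24M with edgeR (3 lower at an unadjusted p under 0.05, 1 lower with DESeq2) and 1 fell at 29M. None of these markers was at 0, and their part in the values of the homeostatic genes was not tested.

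**Figure D4:**
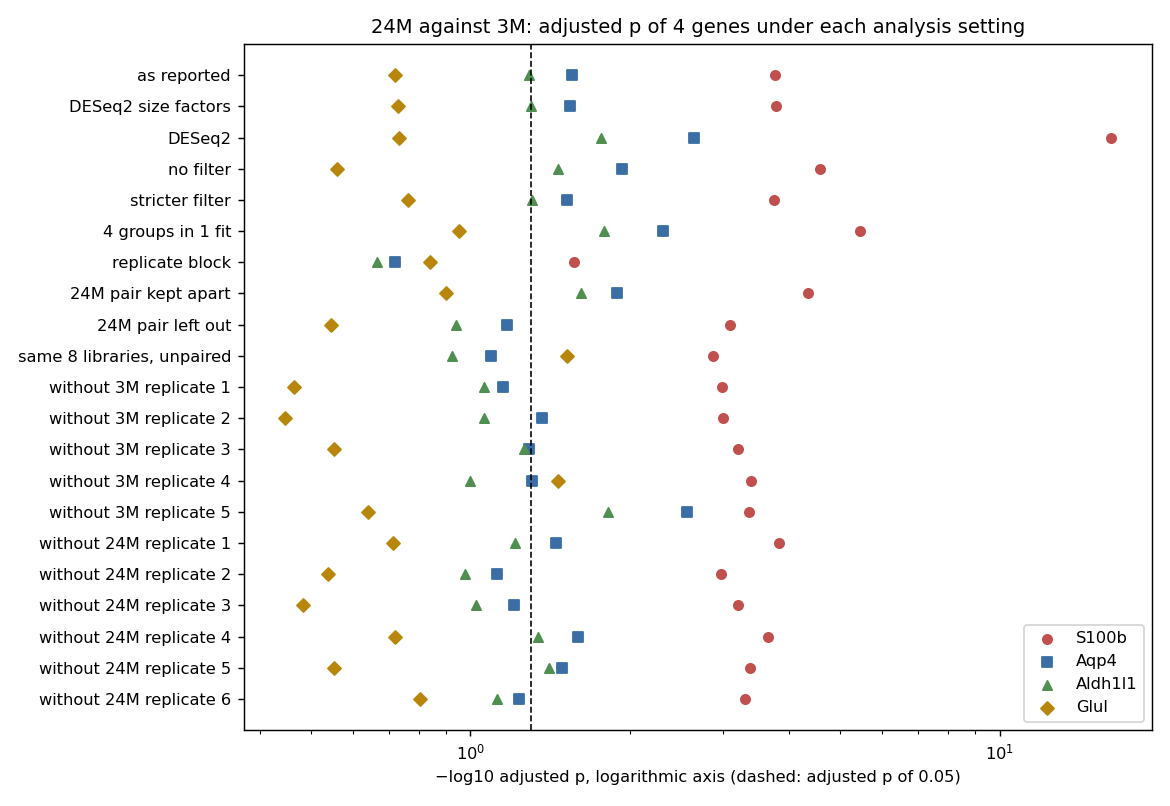
Adjusted p at 24M as its negative log10 (horizontal, logarithmic axis) for S100b, Aqp4, Aldh1l1 and Glul under each analysis setting (rows), with a dashed line at 0.05. S100b lies right of the line in all rows, Aqp4 in the reported analysis and 12 of 20 alternatives, Aldh1l1 in 8 and Glul in 2.

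The genes whose variation between samples of the same group was most like the mean of the 10 genes were Mapk6, Pik3r1, Dcx, Dazap2 and Rhbdd1, out of 10239 genes of at least 10 CPM. Pearson's r over 16 samples was 0.90, 0.89, 0.89, 0.89 and 0.88, and Spearman's rho was 0.86, 0.84, 0.87, 0.84 and 0.94. Without 3M single-end replicates 4 and 1, the samples farthest from the median, r was 0.84, 0.78, 0.85, 0.85 and 0.90. These values describe libraries that share dissection, depth and normalization, and carry no test. Dcx was the only gene of these 5 that passed the test of age, with the decreases and their limits given above.

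Annotated genes on the opposite strand share exon sequence with 3 of the 10 genes, and the sources used here do not give the strand setting of the counting. Gm13872 (within Slc1a2) was counted at no more than 0.876 CPM, Teddm2 (within Glul) at no more than 2.14 and Gm15756 (within Aldh1l1) at no more than 0.285 in any sample. The lowest levels of Slc1a2, Glul and Aldh1l1 were 3323, 1131 and 49.3 CPM. If counting ignored the strand, reads on shared exon sequence may have been assigned to neither gene. The effect of the overlap on these levels was not tested.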

How the data were processed

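The authors aligned reads with STAR 2.3.0 to GRCm38, counted them per gene with HTSeq (intersection-nonempty mode) and deposited raw counts, 1 table per library. The sources used here do not give the annotation release, and identifiers were named from GENCODE M21 (36602 of 38355 matched). Lines that name no gene stayed out, and reads without a feature were 11.43% to 18.4% of these and the counted reads together.

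Each aged group was tested against its own 3M group with edgeR 4.0.16 (quasi-likelihood, TMM, filterByExpr) in R 4.3.3, and p was adjusted after Benjamini and Hochberg over all genes tested. The difference of age effects used all 4 groups. DESeq2 1.42.0 was an alternative. Standard errors are the log2 fold change over the root of F. CPM used TMM scaling within each experiment, and lengths are merged GENCODE exons. Steps were tested on simulated data. The precision of a value is set by the counts above and covers counting error plus the spread between samples.

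The genes, the 17 other lists (232 genes) and 24M replicates 1 and 4 as 1 sample were chosen with earlier results of these data known. Named are the 10 genes, Gfap, Vim, at most 4 genes per list by smallest adjusted p among those that passed at either age, and the 5 genes most like the mean. Alternatives were DESeq2, its size factors, no filter, a filter of 1 CPM, 4 groups in 1 fit, the replicate number as a block, the 24M pair kept apart or left out, and each library left out. The 8 libraries of the block fit without the block were added after seeing the data. A few genes that this rule names are left out here.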

Additional observations from a re-analysis of the deposited data

Results flagged for a closer look

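3 values among 24 groups of 5 samples stood far from the others of their group, by the gap to the nearest sample as a share of the range, which chance gives in about 1 group in 20. Glul was highest in 3M single-end replicate 4 (share 0.785, 1450 CPM against 1131 to 1200 in the other 3M samples) and lowest in 24M replicate 6 (share 0.754, 1248 CPM against 1357 to 1393). Gja1 was lowest in the mean of 24M replicates 1 and 4 (share 0.82, 241.6 CPM against 258.9 to 262.7). The 3M replicate 4 library was also the one with high striatum markers, and the part of that in its Glul level was not tested.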

How the results depend on the processing

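S100b stayed past the adjusted p threshold under all 20 alternatives at 24M and all 12 at 29M. Among the 10 homeostatic genes, the number past the adjusted p threshold at 24M was 2. It was 1 with the replicate block, 1 with the 24M pair left out, and 1 to 3 with single libraries left out. With DESeq2, no filter, the filter of 1 CPM, 4 groups in 1 fit or the pair kept apart it was 3. In each of these settings Aldh1l1 joined as a gene lower at 24M. The number past both thresholds was 0 at 24M, 1 (S100b) with the pair left out, and 0 to 1 with single libraries left out. At 29M it was 1 past adjusted p, and 2 with DESeq2 or no filter, where Glul joined S100b.

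Over all genes, 875 passed adjusted p at 24M. The number was 1581 with DESeq2, 2260 with 4 groups in 1 fit, 1722 with the pair kept apart, 276 with the pair left out, and 177 to 2431 with single libraries left out. Past both thresholds were 310 genes at 24M, 518 with 4 groups in 1 fit, 163 with the pair left out, and 119 to 568 with single libraries left out. At 29M 451 passed adjusted p, 1088 without a filter, 102 with 4 groups in 1 fit, and 198 to 408 with single libraries left out. Past both thresholds were 219 genes at 29M, 441 without a filter, 86 with 4 groups in 1 fit, and 124 to 221 with single libraries left out. These are totals under each setting, and shared genes were not counted. The causes were not tested.

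Replicate numbers did not pair the samples. Deviations of same-numbered samples correlated at -0.22 to 0.05 at 24M and -0.10 to 0.11 at 29M, and no sample correlated best with its own number. With the replicate block, 88 genes passed adjusted p and 81 both thresholds at 24M, against 261 and 155 in the same 8 libraries without the block, where Glul passed and Aqp4 did not. At 29M the block changed no count of the homeostatic genes.

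Of 1659 values of single named genes under the alternatives, 1486 kept side and direction, 140 lost the call and 33 gained it. None of those past the threshold reversed, and 59 changed sign where neither value passed. Counts, at least 348 per homeostatic gene and library, and 3 to 5 samples per group both limit the precision of these comparisons.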
